A study of Mus musculus with 57 samples.

Results

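The step in which the mouse embryo completes its first cleavage was followed in total RNA: early 2-cell embryos (E2-cell, 2 samples) were compared with zygotes (Zygote, 2 samples). The members are all rows of the deposited expression table that reached 1 FPKM, the number of fragments scaled to transcript length and to library depth, in at least 2 of these 4 libraries. That rule kept 13879 of 59119 rows, of which 9621 were protein-coding genes, 2078 were rows named XLOC, which carry no Ensembl gene, 924 were pseudogenes, 838 were annotated lncRNAs and 328 were small or structural RNAs. The rule set a minimum level and did not use the direction of any difference. The rows nearest to it were Urb2, whose second-highest of the 4 values was 1.0002 FPKM, just inside, and Trav7-6, at 0.9998 FPKM, just outside.

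The series holds 57 samples and asks how transcripts linked to repeat elements take part in the activation of the embryonic genome. Both stages here were labelled C57BL/6 and wild type. The protocol names sperm of BDF1 mice, fertilization in vitro through a punched zona, and 150 to 200 embryos pooled per sample, so a value is an average over many embryos. A second experiment of the series supplied the same step in BDF1 embryos: 3 Early2c and 3 Late1c samples (Early2c_MT2Mm_ctrl and Late1c_MT2Mm_ctrl), labelled wild type with an age of 6 to 8 weeks, which are the controls of an MT2Mm knockout made by injection into oocytes. The labels do not say what the controls received. Nothing in the labels says that replicates came from separate collections, so the spread between replicates may be technical. The p-values rest on that spread. In the main test it was pooled over all 16 libraries of the 8 stages from MII oocyte to blastocyst. It was not taken from the 4 libraries of this step alone.

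At fertilization the mouse embryo runs on RNA and protein stored in the egg. The first round of transcription in the zygote is weak and loosely controlled, and a strong wave at the 2-cell stage switches on a set of genes and endogenous retroviruses peculiar to this moment, among them targets of the transcription factor Dux. Over the same hours the store of maternal RNA is deadenylated and degraded.

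The 4 libraries had 12717 to 12892 rows at 1 FPKM or more. The value that 1 fragment is worth gave an estimated depth of about 9900000 and 11800000 fragments in the E2-cell libraries and 16900000 and 19600000 in the zygote libraries, so 1 FPKM over 2 kb rested on 19.8 to 39.2 fragments. Over the members, Pearson's r of the log2 values was 0.974 between the E2-cell libraries and 0.931 between the zygote libraries, and 366 members in E2-cell embryos and 1794 in zygotes differed by more than 1 on the log2 scale between replicates. The zygote libraries stand apart from each other: zygote replicate 1 shares its column tag, b2, with both E2-cell libraries, while zygote replicate 2 is tagged b1 and gave r = 0.968 with both MII oocyte libraries, against 0.913 and 0.919 for zygote replicate 1. RNA of the mitochondrial genome made up 11.4% and 11.1% of the summed FPKM in E2-cell embryos, against 2.75% and 0.46% in zygotes. Results that rest on 1 zygote library are given with and without it.

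The embryos carried the marks of their stage and few of other cells. The oocyte genes Zp3, a zona pellucida protein, and Bmp15, a secreted oocyte factor, were read in all 4 libraries, Zp3 at 21.5 and 30.3 FPKM in E2-cell embryos and 143 and 107 FPKM in zygotes, and Bmp15 at 686 and 702 FPKM in E2-cell embryos and 1297 and 788 FPKM in zygotes. Of 28 markers of cumulus and granulosa cells 3 were members, summing to 10.5 and 9.87 FPKM in E2-cell embryos against 14.2 and 17.2 FPKM in zygotes, and 6 of the 28 were at 0 throughout. Of 21 sperm and testis markers 3 were members, summing to 34.3 and 33.3 FPKM in E2-cell embryos against 11.8 and 31.2 FPKM in zygotes, with Tnp1 and Tnp2 at 0 in all 4 libraries. Of 14 blood and somatic markers 2 were members, summing to 7.82 and 8.48 FPKM in E2-cell embryos against 8.68 and 11.01 FPKM in zygotes, with Ptprc and Hbb-bs at 0. The part of such cells in the results was not tested.

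Of the 13879 members, 7405 changed between the stages (53.4%, against 44.1% of all 19692 rows tested), by limma on log2(FPKM + 0.5) with an adjusted p under 0.05. This main fit pooled the spread between replicates over all 16 stage libraries. When the 4 columns of this step were fitted alone, 4030 members were called, 1386 higher and 2644 lower. In the main fit more fell than rose: 2734 were higher in E2-cell embryos (19.7% of the members, against 17.9% of all rows tested) and 4671 were lower (33.7%, against 26.2% of all rows tested). The median log2 difference over the members was -0.15. Scaled to the summed FPKM of protein-coding genes, the median was 0.03, and the split was 3583 higher and 3811 lower, so the size of the excess of falls depends on the scaling. Without zygote replicate 1 the split was 2664 higher and 4814 lower, and without zygote replicate 2 it was 3642 higher and 4797 lower. The values of the groups did not overlap for 9700 members (69.9%), against 63.4% of all 19692 rows tested. Members that reached the filter through 1 stage only could not overlap. Of the 11791 members that both stages carried past the filter, 7612 did not overlap. In bulk samples fewer cells with a transcript and less of it per cell cannot be told apart, and FPKM gives a share of each library rather than molecules per embryo.

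Rises were the larger changes and falls the more frequent ones. Among called members, 1575 rose and 2526 fell by at least 1 on the log2 scale, but 343 rose and 46 fell by at least 3, and 57 rose and 4 fell by at least 5. Leaving out rows at 0 in both libraries of the lower stage, 195 rose and 41 fell by at least 3. The rule's filter bears on these counts: 1142 members reached 1 FPKM only through the E2-cell libraries and 946 only through the zygote libraries, and those had to differ. The same holds for each gene named below whose values were both under 1 FPKM in zygotes or both under 1 FPKM in E2-cell embryos. Among the 11791 members that both stages carried past the filter, 1644 rose and 3785 fell.

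**Figure D1:**
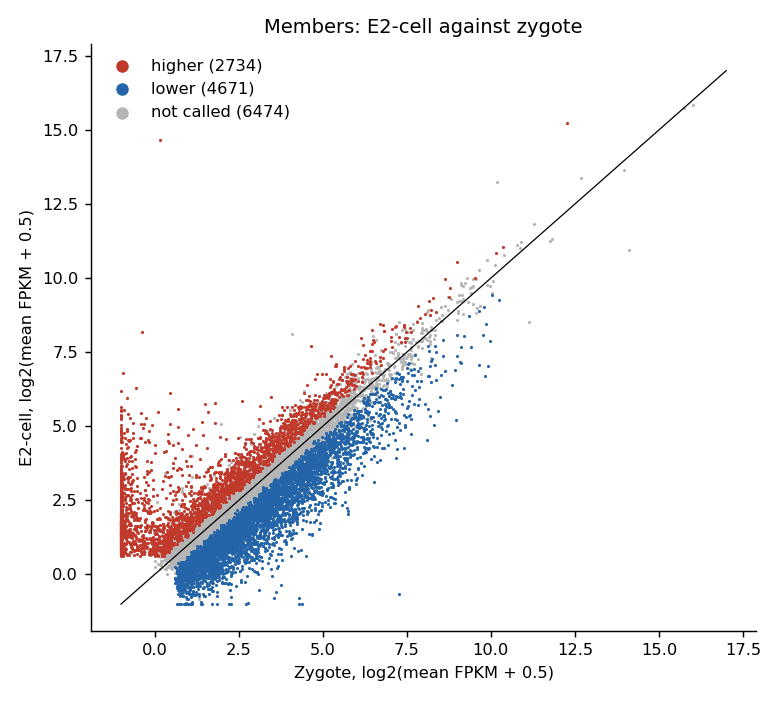
Each point is 1 of the 13879 members, placed by its mean level in 2 zygote libraries (x axis) and in 2 E2-cell libraries (y axis), both as log2(mean FPKM + 0.5); red marks the 2734 members that were higher in E2-cell embryos, blue the 4671 that were lower and grey the rest. The red points reach much farther from the diagonal than the blue ones, and a column of them stands at the left edge, where the zygote value is 0 or close to it.

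The listed 2-cell and Eif1a-like genes moved furthest of the lists examined. Of 33 listed 2-cell genes, targets of Dux and genes driven with the retrovirus MERVL, all 33 were members, 29 rose and 2 fell, with a median log2 difference of 4.70, against -0.15 over all members. The members Tcstv1, at 37.1 and 30.9 FPKM in E2-cell embryos and 31.5 and 16.2 FPKM in zygotes, and Zscan4-ps1, at 24.1 and 26.9 FPKM in E2-cell embryos and 21.1 and 11.6 FPKM in zygotes, did not pass the test. Of the 33, 25 reached 1 FPKM only in E2-cell embryos, and the list was drawn up with earlier results of these data known. Of 14 listed Eif1a-like genes, relatives of the translation initiation factor eIF1A, most of them clustered on chromosome 12, 13 were members and 12 of these rose, with a median log2 difference of 5.85, or 4.77 without the rows at 0 in both zygotes. All 12 reached the filter only in E2-cell embryos. The remaining member, Eif1ad, has the name but sits elsewhere and did not pass the test, with 6.64 and 5.34 FPKM in E2-cell embryos and 3.77 and 9.49 FPKM in zygotes.

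Gm21304, a predicted gene on chromosome 10, read 74.2 and 69.6 FPKM in E2-cell embryos and was listed at 0 in both zygote libraries. Gm5662, an Eif1a-like gene, read 50.8 and 49.8 FPKM in E2-cell embryos and was likewise listed at 0 in both zygotes. Gm8332, of the same family, had 72.8 and 84.6 FPKM in E2-cell embryos against 0.0515 and 0.315 FPKM in zygotes, a log2 difference of 6.88 (SE 0.42, adjusted p = 2.8e-07). Each of these genes was near or at the bottom of the scale before cleavage and far above it after cleavage, with both E2-cell libraries close together. BB287469, in the same stretch of chromosome 12, reached 43.4 and 39.6 FPKM in E2-cell embryos and was at 0 in both zygotes. Gm5580, a predicted gene, read 43.6 and 40.5 FPKM in E2-cell embryos against 0.0648 and 0.0997 FPKM in zygotes (log2 difference 6.19, SE 0.18, adjusted p = 3.32e-09). Gm20765 lies beside Gm21304 and read 49.5 and 42.5 FPKM in E2-cell embryos against 0.00849 and 0.0506 FPKM in zygotes (log2 difference 6.45). Copies within these families are almost the same in sequence, and reads may be shared out between them, so the level of a single copy is less certain than that of the family.

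The 2 genes of the 2-cell list that fell were already abundant in the zygote. Arg2, mitochondrial arginase, had 95.4 and 89.0 FPKM in E2-cell embryos against 216 and 231 FPKM in zygotes (log2 difference -1.27, SE 0.15, adjusted p = 4.67e-05). D5Ertd577e had 27.3 and 29.0 FPKM in E2-cell embryos against 85.4 and 63.0 FPKM in zygotes (log2 difference -1.37, adjusted p = 2.9e-05). For both genes every zygote library was above every E2-cell library.

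The promoters of genes that rose steeply are shown because they differ from other promoters in base composition and in short letter runs, none of which the member rule used. Printed are the 250 bases before each start in RefSeq, build GRCm38.p6, 5′ to 3′ on the gene's strand. Shares and CpG counts were taken over RefSeq windows of 300 bases, which add the 50 bases after the start, and 7159 of the 13879 members had such a window. Capitals mark every match, on either strand, to TATAAA, to GATTNAATC (the core of a Dux site), to GGATTA (the core bound by Obox and Otx homeodomain factors), to its longer form GGATTAAAG, to AAGGTCA (the site of orphan receptors such as Nr5a2) and to CCAAT. GGATTAAAG holds GGATTA, and GATTNAATC can overlap it. Gm4340 lies at chr10:104193792-104194041, Duxf3, the Dux gene itself, at chr10:58233090-58233339 (minus strand), AF067061 at chr13:120262845-120263094, Gm13043, of the Prame family, at chr4:143511093-143511342, Zfp352 at chr4:90218570-90218819, Gm4027, an Eif1a-like gene, at chr12:87618659-87618908, and Zscan4f at chr7:11397665-11397914. Rpl19, a ribosomal protein gene that fell, is at chr11:98026460-98026709 for contrast.
Gm4340: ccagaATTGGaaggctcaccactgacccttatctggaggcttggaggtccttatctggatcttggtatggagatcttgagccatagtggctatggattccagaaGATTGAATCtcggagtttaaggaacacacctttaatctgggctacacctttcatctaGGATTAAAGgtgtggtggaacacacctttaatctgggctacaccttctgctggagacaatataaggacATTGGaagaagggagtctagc
Duxf3: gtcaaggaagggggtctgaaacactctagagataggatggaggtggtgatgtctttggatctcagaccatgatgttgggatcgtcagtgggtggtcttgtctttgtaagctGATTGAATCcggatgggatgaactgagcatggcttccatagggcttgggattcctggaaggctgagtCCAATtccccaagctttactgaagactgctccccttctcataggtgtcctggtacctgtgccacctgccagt
AF067061: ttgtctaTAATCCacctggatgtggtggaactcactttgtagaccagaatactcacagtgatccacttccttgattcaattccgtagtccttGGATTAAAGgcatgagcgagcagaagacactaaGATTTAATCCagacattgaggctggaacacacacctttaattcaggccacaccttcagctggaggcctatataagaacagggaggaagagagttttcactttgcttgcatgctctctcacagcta
Gm13043: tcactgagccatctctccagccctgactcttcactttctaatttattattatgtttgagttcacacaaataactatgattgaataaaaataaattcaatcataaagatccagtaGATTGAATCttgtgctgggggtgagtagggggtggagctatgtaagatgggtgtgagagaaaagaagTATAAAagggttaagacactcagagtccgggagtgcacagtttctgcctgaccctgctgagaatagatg
Zfp352: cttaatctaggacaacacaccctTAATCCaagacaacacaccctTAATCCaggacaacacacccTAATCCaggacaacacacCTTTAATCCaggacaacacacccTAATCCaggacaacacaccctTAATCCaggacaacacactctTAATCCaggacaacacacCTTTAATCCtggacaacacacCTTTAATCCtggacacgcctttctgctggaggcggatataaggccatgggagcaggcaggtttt
Gm4027: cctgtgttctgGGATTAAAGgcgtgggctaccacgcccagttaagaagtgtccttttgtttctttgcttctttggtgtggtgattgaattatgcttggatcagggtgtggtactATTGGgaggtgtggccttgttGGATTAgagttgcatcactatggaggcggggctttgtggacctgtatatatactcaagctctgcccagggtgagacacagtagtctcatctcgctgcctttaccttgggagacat
Zscan4f: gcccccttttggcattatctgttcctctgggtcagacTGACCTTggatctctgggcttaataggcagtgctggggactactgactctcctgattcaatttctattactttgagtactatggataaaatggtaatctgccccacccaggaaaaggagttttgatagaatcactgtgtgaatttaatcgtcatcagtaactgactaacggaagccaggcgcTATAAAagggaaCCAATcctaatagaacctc
Rpl19: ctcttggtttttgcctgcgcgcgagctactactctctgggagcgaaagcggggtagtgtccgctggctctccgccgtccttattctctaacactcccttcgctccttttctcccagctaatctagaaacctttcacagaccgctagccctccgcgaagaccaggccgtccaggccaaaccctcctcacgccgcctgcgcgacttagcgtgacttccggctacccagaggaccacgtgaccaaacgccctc

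Of the members that rose by at least 3, 54 had a window, spread over 30 windows of 1 Mb. GATTNAATC stood in 12 of the 54 (22.2%), against 0.27% of all 32817 RefSeq windows. In the printed sequences it starts 146 bases before the start in Gm4340, 139 in Duxf3, 125 in AF067061 and 136 in Gm13043. Over all members with a window, 13 that rose, 3 that fell and 3 that were not called held it. The 12 lie in 5 windows of 1 Mb on 4 chromosomes, and near-identical copies share their promoters, so they are not 12 separate sequences. GGATTA stood in 22 of the 54 (40.7%), against 7.06% of all windows, and GGATTAAAG in 20 (37.0%), against 0.48%. The 22 lie in 11 windows of 1 Mb on 7 chromosomes and the 20 in 9, so the same limit holds for them. The letters GGATTAAAG also occur in B1 repeats, which are common in the mouse genome.

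Zfp352 held 9 copies of GGATTA, written as TAATCC on its strand, starting between 227 and 61 bases before the start and spaced 20 or 21 bases apart. No other of the 32817 RefSeq windows held 9 copies, and 8 windows held 3 or more. TATAAA stood in 18 of the 54 windows (33.3%, against 13.6% of all windows), AAGGTCA in 9 (16.7%, against 4.72%) and CCAAT in 35 (64.8%, against 37.4%), which lie in 9, 7 and 18 windows of 1 Mb. The windows were also poor in CpG: 48 of the 54 (88.9%) held fewer than 5 CpG, against 38.1% of all windows and 8.14% of the members' windows, and their median was 2 CpG, against 7 in all windows and 22 over the members. The window of Rpl19 held none of the letter runs and 28 CpG. Among the 257 members with a window that fell by at least 2, GATTNAATC was in none, GGATTA in 3.89%, and the median was 19 CpG. A match is a run of letters and does not show that a factor binds there.

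Members that rose were crowded in some windows of 1 Mb. Of 11799 members with a position, 1411 (12.0%) rose and reached 5 FPKM, and the 16 nuclear windows that held at least 7 of them, chosen for that count, held 142. Their share of the members in such a window ran between 19.4% and 100%. On chromosome 12 between 87 and 88 Mb, 14 of 27 members rose to 5 FPKM or more (chr12:87266479-87980224, GRCm38), among them the Eif1a-like genes Gm8300 and Gm4027, and 8 of 14 did so in the next window, which holds Gm5662 and Gm8332. On chromosome 10 between 100 and 101 Mb 13 of 16 did (chr10:100297941-100382560), and between 104 and 105 Mb all 7 of 7 members did (chr10:104142987-104196522), Gm4340, Gm21304 and Gm20765 among them. On chromosome 13 between 120 and 121 Mb it was 8 of 8, and on chromosome 4 between 73 and 74 Mb 10 of 11. A cluster of Obox4-related pseudogenes on chromosome 7 gave 13 of 29 members between 15 and 16 Mb. Members under 1 FPKM in both zygotes passed the filter only through E2-cell libraries, which fixed their direction. The risen members had a median zygote mean of 0 FPKM in that cluster and at 104 Mb on chromosome 10. It was 0.046 FPKM at 100 Mb there and 0.0074 FPKM at 87 Mb on chromosome 12. At 120 Mb on chromosome 13 it was 3.27 FPKM, and at 73 Mb on chromosome 4 1.38 FPKM. Falls were grouped too: 2638 members that fell and read 5 FPKM or more in zygotes had a position, 52 windows held at least 7 of them, and the fullest held 13.

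**Figure D2:**
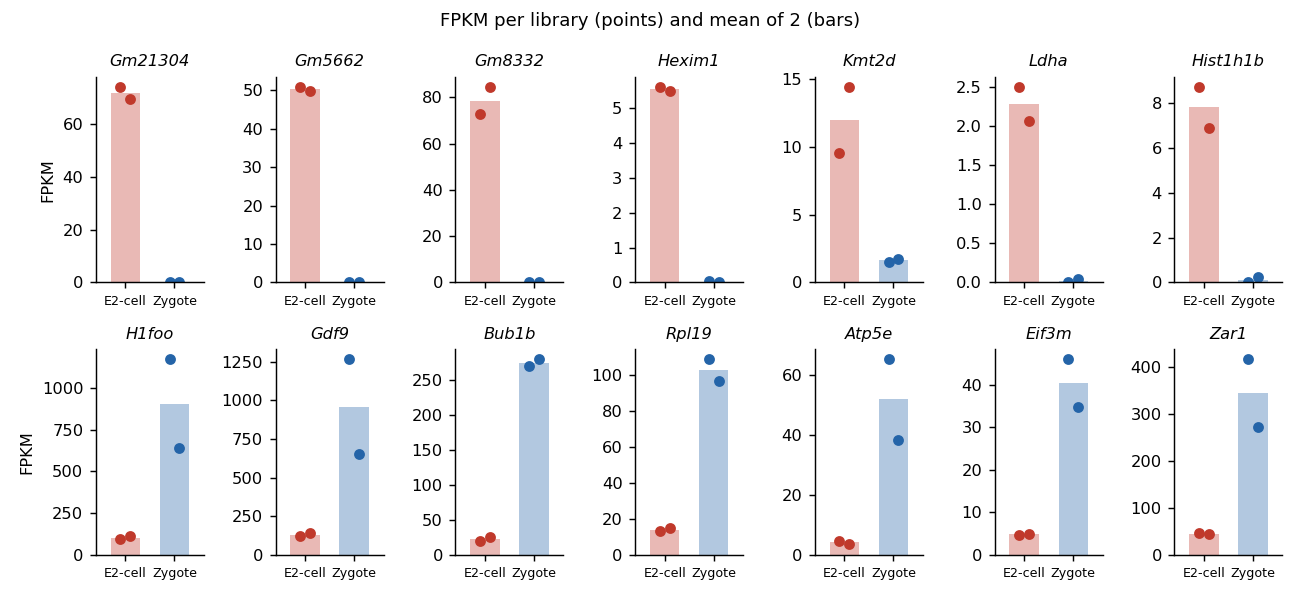
FPKM of 14 genes in each library (points) and the mean of 2 libraries (bars), E2-cell left of Zygote in each panel, each on its own linear axis that starts at 0. The 7 genes of the upper row are higher in both E2-cell libraries than in both zygote libraries, and the 7 of the lower row are lower in both.

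Transcription factors linked to genome activation did not move as 1 block. Of 38 listed, 28 were members, 12 rose and 4 fell, with a median log2 difference of 0.13; the counts were 9 higher and 7 lower without zygote replicate 1, and 16 and 5 without zygote replicate 2. In the main fit that was 42.9% higher and 14.3% lower, against 19.7% and 33.7% of all members. Gabpa, an ETS factor, read 1.49 and 2.28 FPKM in E2-cell embryos against 0 and 0.0663 FPKM in zygotes (log2 difference 2.14, SE 0.16, adjusted p = 1.16e-06). Klf4, a Krüppel-like factor, read 2.84 and 3.32 FPKM in E2-cell embryos against 0.759 and 0.9996 FPKM in zygotes (log2 difference 1.38, adjusted p = 0.00137). Both were low transcripts that reached the filter only through the E2-cell libraries and so had to be higher there. Esrrb, an orphan nuclear receptor, fell to 1.15 and 1.32 FPKM in E2-cell embryos, against 6.67 and 7.09 FPKM in zygotes (log2 difference -2.09, SE 0.17, adjusted p = 2.96e-06). Nfya, a subunit of the CCAAT-binding factor NF-Y, stood at 12.1 and 12.0 FPKM in E2-cell embryos and 26.5 and 20.2 FPKM in zygotes (log2 difference -0.91, adjusted p = 0.00384). Klf17, the most abundant factor of the list that was not called, held 314 and 297 FPKM in E2-cell embryos and 306 and 334 FPKM in zygotes, which overlap.

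Of 7 listed Obox genes, homeobox genes expressed in the egg, 6 were members, 3 rose and none fell. Obox3 and Obox6 reached the filter only through the E2-cell libraries and so had to be higher there. Obox3 read 1.79 and 1.85 FPKM in E2-cell embryos against 0.296 and 0.161 FPKM in zygotes (log2 difference 1.68, SE 0.19, adjusted p = 3.77e-05), and Obox6 1.38 and 1.24 FPKM in E2-cell embryos against 0.148 and 0.114 FPKM in zygotes (log2 difference 1.52, adjusted p = 6.14e-07). The rise of Obox5, at 661 and 645 FPKM in E2-cell embryos and 522 and 350 FPKM in zygotes (adjusted p = 0.0252), was lost without zygote replicate 2, without either E2-cell replicate, with a pseudocount of 0.1, with no filter and when the 4 columns were fitted alone. Obox1, at 544 and 519 FPKM in E2-cell embryos and 428 and 367 FPKM in zygotes, did not pass the test. The very abundant Obox5 and Obox1 thus had small or uncertain differences, while the filter fixed the direction for the low-level Obox3 and Obox6.

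Within the transcription machinery (general factors, Mediator, elongation factors; 89 members) 16 genes rose (18.0%, against 19.7% of all members) and 32 fell (36.0%, against 33.7%), with a median of -0.17, so its balance was close to that of the members at large. Hexim1, the inhibitor of the elongation kinase P-TEFb, showed the steepest rise, with 5.61 and 5.48 FPKM in E2-cell embryos against 0.0340 and 0 FPKM in zygotes (log2 difference 3.55, SE 0.13, adjusted p = 7.84e-09). Taf4, a subunit of TFIID, had 22.5 and 24.2 FPKM in E2-cell embryos against 4.27 and 8.64 FPKM in zygotes (log2 difference 1.85, adjusted p = 0.00271). Med17, of the Mediator head, fell to 33.8 and 30.9 FPKM in E2-cell embryos, against 199 and 149 FPKM in zygotes (log2 difference -2.40, SE 0.15, adjusted p = 3.57e-07). Taf1b, of the RNA polymerase I factor SL1, fell to 5.74 and 5.47 FPKM in E2-cell embryos, against 42.4 and 32.2 FPKM in zygotes (log2 difference -2.62, adjusted p = 1.56e-07).

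Subunits of the RNA polymerases fell more often, with 5 higher and 14 lower of 27 (18.5% and 51.9%, against 19.7% and 33.7% of all members). Their median log2 difference was -0.53. Polr2b, the second-largest subunit of RNA polymerase II, stood at 9.51 and 11.1 FPKM in E2-cell embryos against 33.8 and 32.5 FPKM in zygotes (log2 difference -1.64, SE 0.12, adjusted p = 9.96e-07), and Polr2k, a small subunit shared by all polymerases, at 6.95 and 8.81 FPKM in E2-cell embryos against 73.8 and 52.1 FPKM in zygotes (log2 difference -2.91). The largest subunit, Polr2a, went the other way, with 1.80 and 3.01 FPKM in E2-cell embryos against 0.829 and 0.895 FPKM in zygotes (log2 difference 1.06, adjusted p = 0.00584), a call lost without E2-cell replicate 2 and in the columns of tag b2 alone.

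Chromatin regulators were higher on balance: 23 of 53 members rose and 10 fell, with a median of 0.59, against 19.7% higher over all members. The median was 0.19 without zygote replicate 1, the counts were 13 and 8 without E2-cell replicate 2, and in the BDF1 control embryos it was 0.01. Kmt2d, a histone H3 lysine 4 methyltransferase of the MLL family, read 9.57 and 14.4 FPKM in E2-cell embryos against 1.501 and 1.75 FPKM in zygotes (log2 difference 2.53, SE 0.57, adjusted p = 0.00409). Kmt2b, of the same family, read 11.1 and 17.5 FPKM in E2-cell embryos against 3.24 and 3.60 FPKM in zygotes (log2 difference 1.89, adjusted p = 0.000401). Both are very long transcripts, and the members of this list had a median transcript length of 4745 bases. Hdac3, a histone deacetylase, fell to 1.57 and 1.37 FPKM in E2-cell embryos, against 3.42 and 3.27 FPKM in zygotes (log2 difference -0.97, adjusted p = 4.77e-05), and Chaf1b, a subunit of the replication-coupled assembly factor CAF-1, to 1.66 and 1.65 FPKM in E2-cell embryos, against 3.08 and 3.86 FPKM in zygotes (log2 difference -0.87).

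Linker histone genes moved in both directions. H1foo, the oocyte linker histone, fell to 96.1 and 110 FPKM in E2-cell embryos, against 1171 and 637 FPKM in zygotes (log2 difference -3.06, SE 0.26, adjusted p = 3.39e-06). Hist1h1b, a somatic linker histone, read 8.74 and 6.92 FPKM in E2-cell embryos against 0 and 0.227 FPKM in zygotes (log2 difference 3.78, SE 0.23, adjusted p = 3.1e-07). Hist1h1e, another somatic linker histone, fell to 4.22 and 3.88 FPKM in E2-cell embryos, against 7.45 and 6.95 FPKM in zygotes (log2 difference -0.76, adjusted p = 0.00312), a call lost when the 4 columns were fitted alone. The most abundant linker gene, Hist1h1a, held 3948 and 3237 FPKM in E2-cell embryos and 2519 and 2433 FPKM in zygotes and did not pass the test. Of the 77 histone members 15 rose and 6 fell, and without zygote replicate 2 the counts were 12 and 12. In the main fit that was 19.5% higher and 7.79% lower, against 19.7% and 33.7% of all members. Hist1h2bm, a core histone gene, read 28.2 and 18.8 FPKM in E2-cell embryos against 3.31 and 4.32 FPKM in zygotes (log2 difference 2.46, adjusted p = 5e-06).

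DNA methylation genes gave 3 rises and 5 falls among 20 members (15% and 25%, against 19.7% and 33.7% of all members). Gadd45b, linked to demethylation and to stress responses, read 3.75 and 4.62 FPKM in E2-cell embryos against 0.391 and 0.405 FPKM in zygotes (log2 difference 2.38, SE 0.17, adjusted p = 8.96e-07). Hells, a chromatin remodeller needed for DNA methylation, read 26.0 and 24.2 FPKM in E2-cell embryos against 10.2 and 13.9 FPKM in zygotes (log2 difference 1.04, adjusted p = 0.00027). Trim28, the corepressor that silences retroviruses, fell to 16.96 and 16.1 FPKM in E2-cell embryos, against 34.3 and 46.4 FPKM in zygotes (log2 difference -1.24, adjusted p = 4.7e-05). Transposon defence gave 3 higher and 10 lower of 25 members (12% and 40%). Within it Zfp809, a zinc-finger protein that targets retroviral DNA, rose to 5.46 and 6.20 FPKM in E2-cell embryos, against 1.73 and 1.02 FPKM in zygotes (log2 difference 1.78). Tdrd5, of the piRNA pathway, fell to 6.41 and 6.32 FPKM in E2-cell embryos, against 21.9 and 34.9 FPKM in zygotes (log2 difference -2.04).

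Genes for making protein and energy were low in the early 2-cell embryo. Of 84 cytosolic ribosomal protein members 58 fell and 4 rose, with a median log2 difference of -1.26, against 33.7% lower over all members. Rpl19 had 13.1 and 14.8 FPKM in E2-cell embryos against 109 and 96.8 FPKM in zygotes (log2 difference -2.84, SE 0.13, adjusted p = 3.99e-08). Rpl21 had 2.66 and 3.24 FPKM in E2-cell embryos against 22.7 and 25.9 FPKM in zygotes (log2 difference -2.85, SE 0.12, adjusted p = 2.32e-08). No zygote value of either gene came near the E2-cell values. Of the 4 that rose, Rps19 read 4.11 and 3.62 FPKM in E2-cell embryos against 0.898 and 0.761 FPKM in zygotes (log2 difference 1.72, adjusted p = 9.96e-07), and Rpl9 1.61 and 1.42 FPKM in E2-cell embryos against 0.236 and 0.316 FPKM in zygotes (log2 difference 1.38). Ribosomal protein genes have many processed pseudogenes, so reads may be divided between copies and the level of one gene is uncertain. All 84 members together took 0.222% and 0.219% of the summed FPKM in E2-cell embryos and 0.530% and 0.743% in zygotes.

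Ribosome assembly showed the same direction, with 35 of 63 members lower and 7 higher and a median of -0.80; without zygote replicate 2 the counts were 29 lower and 16 higher. Ddx56, a nucleolar helicase, fell to 11.6 and 11.7 FPKM in E2-cell embryos, against 77.4 and 53.6 FPKM in zygotes (log2 difference -2.42, SE 0.17, adjusted p = 7.83e-07). Noc2l, a nucleolar protein, fell to 5.41 and 5.21 FPKM in E2-cell embryos, against 29.3 and 21.9 FPKM in zygotes (log2 difference -2.15, adjusted p = 7.63e-07). Nop16, a nucleolar protein, went the other way, with 1.15 and 1.42 FPKM in E2-cell embryos, and was listed at 0 in both zygotes. Among translation factors 10 of 54 rose and 21 fell (18.5% and 38.9%, against 19.7% and 33.7% of all members), a balance near that of the members at large. Eif3m, a subunit of initiation factor eIF3, fell to 4.66 and 4.98 FPKM in E2-cell embryos, against 46.0 and 34.7 FPKM in zygotes (log2 difference -2.93, SE 0.15, adjusted p = 7.49e-08), and Eef1g, a subunit of elongation factor eEF1, to 1.69 and 2.02 FPKM in E2-cell embryos, against 11.7 and 9.94 FPKM in zygotes (log2 difference -2.27). Eif4e1b, the oocyte form of the cap-binding factor, stayed among the abundant transcripts, with 171 and 175 FPKM in E2-cell embryos and 245 and 142 FPKM in zygotes, and did not pass the test.

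Nuclear-encoded subunits of the respiratory chain fell most often of the lists examined with at least 10 members: 63 of 75 were lower and 3 higher, with a median of -1.31. Atp5e, a small subunit of ATP synthase, fell to 4.69 and 3.72 FPKM in E2-cell embryos, against 65.3 and 38.5 FPKM in zygotes (log2 difference -3.44, SE 0.21, adjusted p = 3.18e-07). Cox4i1, of cytochrome c oxidase, fell to 5.33 and 3.74 FPKM in E2-cell embryos, against 47.9 and 45.9 FPKM in zygotes (log2 difference -3.25, SE 0.20, adjusted p = 3.34e-07). Ndufb4, of complex I, fell to 1.07 and 1.43 FPKM in E2-cell embryos, against 24.3 and 13.2 FPKM in zygotes (log2 difference -3.41). Not every abundant subunit did: Atp5b, the catalytic subunit of ATP synthase, held 75.4 and 66.1 FPKM in E2-cell embryos and 66.3 and 72.6 FPKM in zygotes, and Cox8a 95.1 and 86.5 FPKM in E2-cell embryos and 97.6 and 73.5 FPKM in zygotes, neither of which passed the test. The rise of Cox6b2, with 9.395 and 10.9 FPKM in E2-cell embryos and 4.33 and 3.15 FPKM in zygotes (adjusted p = 0.0093), was lost without zygote replicate 2 and without E2-cell replicate 2.

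Proteasome genes followed, with 24 of 40 members lower, 3 higher and a median of -1.02. Psma7, of the core particle, fell to 19.3 and 19.3 FPKM in E2-cell embryos, against 109 and 74.1 FPKM in zygotes (log2 difference -2.19, SE 0.17, adjusted p = 1.38e-06), and Psmd8, of the regulatory particle, to 17.3 and 15.8 FPKM in E2-cell embryos, against 72.3 and 77.2 FPKM in zygotes (log2 difference -2.14). Psme4, an alternative activator of the proteasome, was higher, with 83.1 and 89.5 FPKM in E2-cell embryos against 44.9 and 42.0 FPKM in zygotes (log2 difference 0.98, adjusted p = 0.000145).

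**Figure D3:**
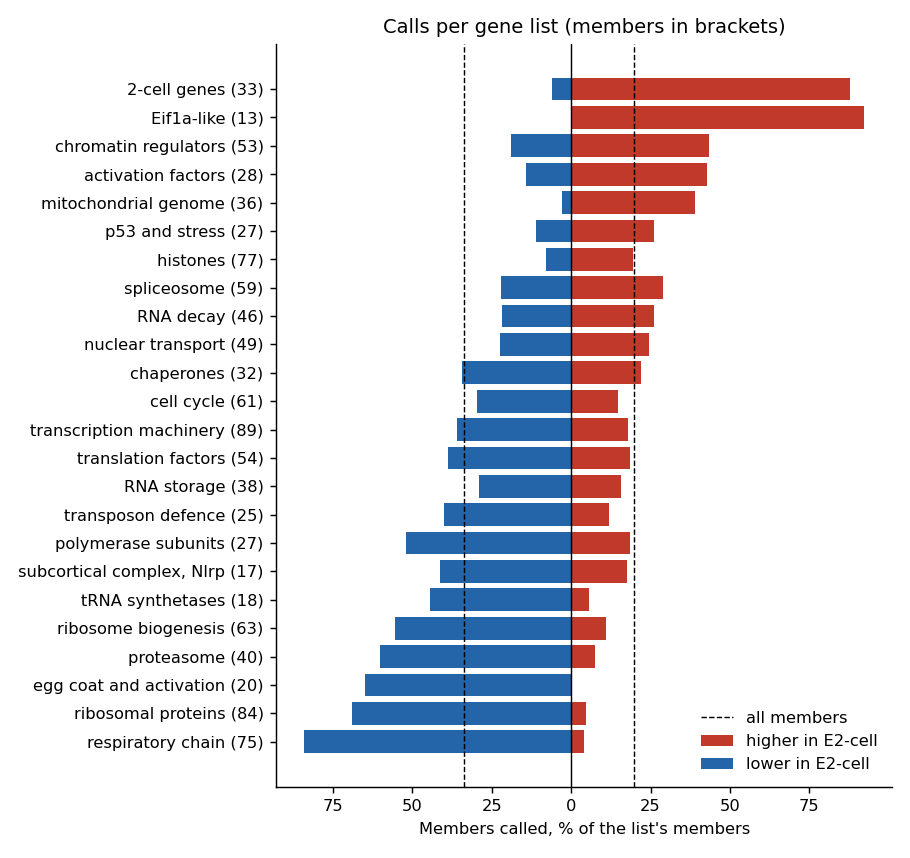
Share of each list's members called higher (red, to the right) or lower (blue, to the left) in E2-cell embryos than in zygotes, in percent of the list's members, whose number stands in brackets; dashed lines mark the shares over all 13879 members, 19.7% higher and 33.7% lower. The 2-cell and Eif1a-like genes extend far to the right, and the respiratory chain, the ribosomal proteins, the egg coat genes and the proteasome far to the left.

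The lists differ in how far their balance holds. The 2-cell genes, the Eif1a-like genes, the chromatin regulators and the p53 and stress genes had more rises than falls, and the ribosomal proteins, the respiratory chain, the proteasome, ribosome biogenesis, the egg coat genes, the transcription machinery and the polymerase subunits more falls than rises, under every alternative tried. The cell cycle, subcortical complex, translation factor and transposon defence lists also had more falls, and the activation factors more rises, under every alternative. The members at large had more falls than rises under every alternative too. Without zygote replicate 2 the rises grew to 11 of 84 for ribosomal proteins, 8 of 40 for the proteasome, 28 of 89 for the transcription machinery and 19 of 54 for translation factors, and transposon defence stood at 9 higher and 10 lower. For the lists named next the balance evened out or turned, so their counts carry no direction. Spliceosome genes gave 17 higher and 22 lower without zygote replicate 1, RNA decay 9 and 14 without that replicate and 3 and 10 without E2-cell replicate 2, and oocyte ligands 9 and 8 without zygote replicate 1. Without zygote replicate 2 RNA storage gave 11 higher and 11 lower, the metabolic list 10 and 10 and DNA methylation 5 and 5. The cytoskeleton list gave 10 and 10 and nuclear transport 11 and 12 without zygote replicate 1. Under protein-coding scaling the metabolic list had 8 higher and 6 lower, DNA methylation 5 and 4 and ubiquitin genes 12 and 10.

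Transcript length moved with these results and is given beside them. The median transcript length was 1054 bases for ribosomal protein members and 1005 bases for respiratory chain members, against 4745 bases for chromatin regulators and 2804 bases over the members with a length. Over all protein-coding members the median log2 difference ran from -0.90 for transcripts of 0.5 to 1 kb (449 members) through -0.59 for 1 to 2 kb (1703) and -0.27 for 2 to 4 kb (3859) to -0.07 for 4 to 6 kb (2160) and 0.24 above 6 kb (1366). The 71 members under 0.5 kb had a median of 0.12. In the BDF1 control embryos the medians of the same members were 1.12 under 0.5 kb, -0.55 at 0.5 to 1 kb, -0.57 at 1 to 2 kb, -0.41 at 2 to 4 kb, -0.28 at 4 to 6 kb and -0.04 above 6 kb. The zygote libraries also differed by length, replicate 1 minus replicate 2 having a median of 0.17 at 0.5 to 1 kb and -0.35 above 6 kb. The part of length in the differences between lists was not tested.

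**Figure D4:**
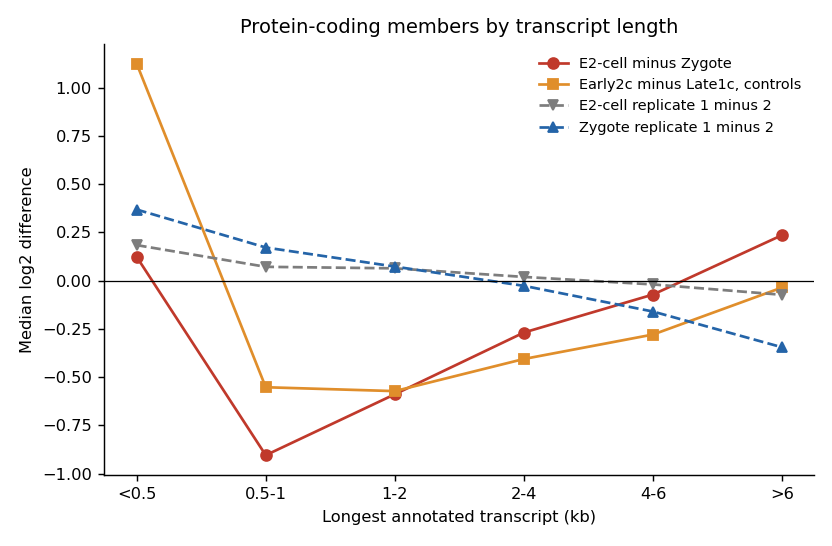
Median log2 difference of protein-coding members in bins of transcript length (x axis, kb), for E2-cell minus Zygote, for Early2c minus Late1c in the BDF1 controls, and for the 2 replicate pairs. From 0.5 kb upward the line of E2-cell minus Zygote climbs from -0.90 to 0.24 as transcripts get longer.

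The steepest rises came from short, simple genes. The 127 protein-coding members that rose by at least 3 had a median length of 1573 bases and a median of 2 exons, and 44 of them (34.6%) had a single exon. Near-identical copies in clusters are each counted among the 127, so these are not 127 separate structures. A single exon was found in 8.08% of all protein-coding members that rose, 5.64% of those that fell and 6.00% of those not called. Median lengths of those classes were 3824 bases for members that rose, 2731 bases for members that fell and 3566 bases for members not called.

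Egg coat, sperm fusion and egg activation genes were lower in most cases. Of 20 members of that list 13 fell and none rose, with a median of -0.94, against 33.7% lower over all members. Astl, the protease that hardens the zona after fertilization, fell to 17.8 and 19.5 FPKM in E2-cell embryos, against 130 and 97.0 FPKM in zygotes (log2 difference -2.56, SE 0.18, adjusted p = 9.17e-07). Plat, tissue plasminogen activator, fell to 35.5 and 39.5 FPKM in E2-cell embryos, against 217 and 180 FPKM in zygotes (log2 difference -2.38, adjusted p = 1.53e-07). Mos, the kinase that holds the egg in meiotic arrest, fell to 5.62 and 10.7 FPKM in E2-cell embryos, against 122 and 59.6 FPKM in zygotes (log2 difference -3.37, adjusted p = 1.08e-05). Oosp3, an oocyte secreted protein gene, stayed high, with 594 and 610 FPKM in E2-cell embryos and 679 and 391 FPKM in zygotes, and did not pass the test.

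Oocyte ligands and regulators gave 9 falls and 3 rises among 27 members (33.3% lower, against 33.7% of all members). Gdf9, the oocyte growth factor, fell to 121 and 141 FPKM in E2-cell embryos, against 1266 and 652 FPKM in zygotes (log2 difference -2.79, SE 0.26, adjusted p = 6.35e-06). Figla, the oocyte transcription factor that drives the zona genes, fell to 3.32 and 2.66 FPKM in E2-cell embryos, against 16.7 and 16.7 FPKM in zygotes (log2 difference -2.31, adjusted p = 1.88e-05). The zygote replicates of Gdf9 lay far apart, yet both were well above the E2-cell values. Tcl1, an AKT coactivator of the egg, kept a level of 704 and 662 FPKM in E2-cell embryos and 664 and 455 FPKM in zygotes and did not pass the test. Of 17 genes of the subcortical maternal complex and the Nlrp family 7 fell (41.2%) and 3 rose, Ooep, a core member of the complex, with 171 and 163 FPKM in E2-cell embryos against 597 and 422 FPKM in zygotes (log2 difference -1.59, adjusted p = 3.37e-05).

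The list of RNA-binding proteins linked to maternal RNA storage split by gene. Of its 38 members 11 were lower and 6 higher (28.9% and 15.8%, against 33.7% and 19.7% of all members). Zar1, the zygote arrest protein that holds maternal RNA, fell to 46.4 and 43.4 FPKM in E2-cell embryos, against 415 and 272 FPKM in zygotes (log2 difference -2.89, SE 0.26, adjusted p = 5.42e-06), and its paralog Zar1l to 84.5 and 83.3 FPKM in E2-cell embryos, against 557 and 355 FPKM in zygotes (log2 difference -2.40). Pabpn1l, an oocyte poly(A)-binding protein, fell to 42.3 and 37.4 FPKM in E2-cell embryos, against 362 and 222 FPKM in zygotes (log2 difference -2.82). By contrast Igf2bp3, an RNA-binding protein, read 14.05 and 14.3 FPKM in E2-cell embryos against 5.38 and 6.73 FPKM in zygotes (log2 difference 1.17, adjusted p = 0.00155), and Dazl 147 and 156 FPKM in E2-cell embryos and 186 and 147 FPKM in zygotes without passing the test. Among 46 genes of RNA decay 12 rose and 10 fell (26.1% and 21.7%). Cnot10, of the CCR4-NOT deadenylase, fell to 2.87 and 2.49 FPKM in E2-cell embryos, against 8.46 and 9.36 FPKM in zygotes (log2 difference -1.57, adjusted p = 9.56e-06), while Btg4, the adapter that brings that deadenylase to maternal RNA, held 979 and 1005 FPKM in E2-cell embryos and 804 and 716 FPKM in zygotes and did not pass the test.

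Cell cycle genes changed in both directions, 18 of 61 lower and 9 higher, and 23 lower and 16 higher without zygote replicate 1. In the main fit that was 29.5% lower and 14.8% higher, against 33.7% and 19.7% of all members. Bub1b, a spindle checkpoint kinase, fell to 19.8 and 25.9 FPKM in E2-cell embryos, against 270 and 280 FPKM in zygotes (log2 difference -3.57, SE 0.13, adjusted p = 7.98e-09). Ccno, a cyclin, fell to 54.1 and 53.5 FPKM in E2-cell embryos, against 267 and 257 FPKM in zygotes (log2 difference -2.27, adjusted p = 1.98e-07). Plk2, a polo-like kinase, read 5.30 and 5.63 FPKM in E2-cell embryos against 0.786 and 0.767 FPKM in zygotes (log2 difference 2.22, adjusted p = 1.87e-06), and Ccne1, the cyclin of S-phase entry, 5.42 and 5.36 FPKM in E2-cell embryos against 1.99 and 1.85 FPKM in zygotes (log2 difference 1.28, adjusted p = 1.54e-06). In each of these 4 genes the replicates of a stage lay close together compared with the gap between stages. Wee2, the oocyte kinase that restrains CDK1, held 380 and 366 FPKM in E2-cell embryos and 446 and 290 FPKM in zygotes and did not pass the test.

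Metabolic genes moved in both directions. Ldha, the muscle-type subunit of lactate dehydrogenase, read 2.50 and 2.06 FPKM in E2-cell embryos against 0 and 0.0428 FPKM in zygotes (log2 difference 2.41, SE 0.21, adjusted p = 4.88e-06), and Hk2, hexokinase 2, 2.27 and 2.93 FPKM in E2-cell embryos against 0.324 and 0.677 FPKM in zygotes (log2 difference 1.65, adjusted p = 5.04e-05). Pkm, pyruvate kinase, fell to 67.8 and 58.8 FPKM in E2-cell embryos, against 178 and 121 FPKM in zygotes (log2 difference -1.21, adjusted p = 0.000357), and Mpc2, of the mitochondrial pyruvate carrier, to 1.27 and 1.27 FPKM in E2-cell embryos, against 3.97 and 4.11 FPKM in zygotes (log2 difference -1.36). Ldha and Hk2 reached the filter only through the E2-cell libraries and so had to be higher there. Of 30 members of this list 6 rose and 11 fell (20% and 36.7%, against 19.7% and 33.7% of all members), near the members at large. Among 27 p53, apoptosis and stress genes 7 rose and 3 fell (25.9% and 11.1%). Hmox1, heme oxygenase 1, read 2.91 and 2.85 FPKM in E2-cell embryos against 0.395 and 0.502 FPKM in zygotes (log2 difference 1.84). Gpx4, glutathione peroxidase 4, fell to 4.08 and 3.90 FPKM in E2-cell embryos, against 30.2 and 19.0 FPKM in zygotes (log2 difference -2.45).

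Chaperones gave 7 rises and 11 falls among 32 members, 5 and 17 without zygote replicate 1 and 13 and 11 without zygote replicate 2. In the main fit that was 21.9% higher and 34.4% lower, near the 19.7% and 33.7% of all members. Hspa2, an Hsp70 protein known from the germline, read 7.69 and 8.79 FPKM in E2-cell embryos against 0.790 and 2.22 FPKM in zygotes (log2 difference 2.22, SE 0.27, adjusted p = 5.3e-05), and Hsp90ab1, the constitutive Hsp90, 104 and 112 FPKM in E2-cell embryos against 20.6 and 35.1 FPKM in zygotes (log2 difference 1.98, adjusted p = 0.000626). Hspa8, the constitutive Hsp70, fell to 14.5 and 17.3 FPKM in E2-cell embryos, against 74.2 and 44.9 FPKM in zygotes (log2 difference -1.83, adjusted p = 8.25e-05), and Cct5, of the chaperonin that folds actin and tubulin, to 16.2 and 18.2 FPKM in E2-cell embryos, against 74.7 and 79.2 FPKM in zygotes (log2 difference -2.13). The stages did not overlap in any of these 4 genes.

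The cytoskeleton list, with 6 higher and 11 lower of 30 (20% and 36.7%, near the 19.7% and 33.7% of all members), also changed in both directions. Tubb4b, a beta-tubulin, fell to 249 and 220 FPKM in E2-cell embryos, against 1102 and 922 FPKM in zygotes (log2 difference -2.10, SE 0.18, adjusted p = 3.2e-06), while Tubb3 held 315 and 283 FPKM in E2-cell embryos and 327 and 226 FPKM in zygotes and did not pass the test. Tmsb10, an actin-sequestering thymosin, fell to 16.4 and 18.6 FPKM in E2-cell embryos, against 84.1 and 67.9 FPKM in zygotes (log2 difference -2.08), and its relative Tmsb4x read 2.23 and 1.86 FPKM in E2-cell embryos against 0.0850 and 0.134 FPKM in zygotes (log2 difference 2.06). Nuclear transport genes gave 12 higher and 11 lower of 49 (24.5% and 22.4%). Among them the importin alpha Kpna1 read 2.104 and 1.99 FPKM in E2-cell embryos against 0.0597 and 0.0622 FPKM in zygotes (log2 difference 2.18, adjusted p = 0.000469), and Kpna2, another importin alpha, fell to 261 and 261 FPKM in E2-cell embryos, against 653 and 517 FPKM in zygotes (log2 difference -1.15). Kpna7, the oocyte importin, held 124 and 118 FPKM in E2-cell embryos and 216 and 166 FPKM in zygotes (adjusted p = 0.0534).

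The remaining lists were close to the members at large or mixed. Spliceosome genes gave 17 higher and 13 lower of 59 (28.8% and 22.0%, against 19.7% and 33.7% of all members). Snrpg, an Sm ring protein, read 45.4 and 36.3 FPKM in E2-cell embryos against 9.04 and 15.9 FPKM in zygotes (log2 difference 1.72, adjusted p = 0.000382), and Prpf8, the core factor of the spliceosome, fell to 7.63 and 9.78 FPKM in E2-cell embryos, against 27.1 and 30.7 FPKM in zygotes (log2 difference -1.68). Ubiquitin genes gave 12 higher and 13 lower of 41 (29.3% and 31.7%). Rfpl4b, a RING finger gene, read 4.35 and 4.13 FPKM in E2-cell embryos against 0 and 0.191 FPKM in zygotes (log2 difference 3.01, adjusted p = 1.58e-05), and Uchl1, a ubiquitin hydrolase of the egg, fell to 276 and 264 FPKM in E2-cell embryos, against 1035 and 724 FPKM in zygotes (log2 difference -1.68). The tRNA synthetases gave 1 higher and 8 lower of 18, and 6 and 6 without zygote replicate 2. The interferon list had only 9 members of 25, of which 5 fell and none rose.

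RNAs of the mitochondrial genome were higher in E2-cell embryos in 14 of 36 members and lower in 1, with a median log2 difference of 1.31, but the calls depended on the fit. Without zygote replicate 2 the median was 0.86 and none of the 36 was called higher in the fit over all stages, while the columns of tag b2 alone, which also lack that library, gave 20 higher. With no filter on low values none was called higher, and without E2-cell replicate 2 the count was 1. The ribosomal RNA mt-Rnr2 read 39546 and 36879 FPKM in E2-cell embryos against 9407 and 400 FPKM in zygotes, so on the log2 scale the zygote replicates lay farther apart from each other than zygote replicate 1 lay from the E2-cell libraries. The messenger RNA mt-Co1, a cytochrome c oxidase subunit, held 793 and 907 FPKM in E2-cell embryos and 748 and 409 FPKM in zygotes and did not pass the test.

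Of the 2734 rises, 1707 were of protein-coding genes and the rest of other rows. Pseudogenes rose more often than they fell, 316 against 207 of 924 members (34.2% and 22.4%, against 19.7% and 33.7% of all members). Of these 924, 211 reached the filter only through the E2-cell libraries and 80 only through the zygote libraries, so their direction was fixed. Small or structural RNAs also rose more often, 65 against 10 of 328 (19.8% higher, near the 19.7% of all members, and 3.05% lower). Of these 328, 47 passed only through E2-cell and 5 only through zygote libraries. The filter thus fixed part of the excess of rises in both classes. Annotated lncRNAs gave 143 higher and 275 lower of 838 (17.1% and 32.8%). XLOC loci gave 480 higher and 645 lower of 2078 (23.1% and 31.0%). Both classes were near the shares of all members. Of the 458 members listed at 0 in both zygotes, 264 were XLOC loci, 67 pseudogenes, 52 protein-coding genes and 49 annotated lncRNAs. Gm48388, a pseudogene, read 43.4 and 50.02 FPKM in E2-cell embryos and was at 0 in both zygotes. XLOC_023646 read 29.3 and 22.0 FPKM in E2-cell embryos and was at 0 in both zygotes. XLOC_009979 went down, with 0.111 and 0.0445 FPKM in E2-cell embryos against 15.1 and 23.1 FPKM in zygotes (log2 difference -5.06, SE 0.25, adjusted p = 4.94e-08). The deposited table gives no position for XLOC loci.

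Among annotated lncRNAs, Gm14742 read 15.3 and 13.8 FPKM in E2-cell embryos and was listed at 0 in both zygotes. B020004C17Rik read 13.7 and 10.7 FPKM in E2-cell embryos against 0.114 and 0 FPKM in zygotes (log2 difference 4.50, SE 0.19, adjusted p = 1.63e-08). Gm28967 fell to 3.79 and 3.50 FPKM in E2-cell embryos, against 71.3 and 35.5 FPKM in zygotes (log2 difference -3.62, SE 0.31, adjusted p = 3.72e-06). Scarna13, a small Cajal body RNA, read 330 and 243 FPKM in E2-cell embryos against 0 and 0.538 FPKM in zygotes (log2 difference 8.62, adjusted p = 1.34e-08). Zygote replicate 1 minus zygote replicate 2 had a median of 0.75 on the log2 scale over the 328 small or structural RNAs, whose median difference between stages was 0.54. Small RNAs are near or under the size of a read, 150 bases, or lie within host genes, so their FPKM are uncertain, and the row Mir3069, at 0.169 and 0.112 FPKM in E2-cell embryos and 187 and 122.6 FPKM in zygotes, is given with the same limit.

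The other stages show where the called members were highest and what followed. Of the 2734 members that rose, 1311 (48.0%) had their highest stage mean in E2-cell embryos, 610 (22.3%) in late 2-cell embryos and 288 at the 4-cell stage. At the late 2-cell stage 782 of the 2734 had dropped to at most 50% of their E2-cell mean, and 605 had at least doubled it. Of the 4671 that fell, 1972 (42.2%) were highest in zygotes, 1023 (21.9%) in MII oocytes and 741 (15.9%) in blastocysts. The calls used the same E2-cell and zygote values, so a peak in the higher stage of the call was favoured in these shares. By the late 2-cell stage 782 of the 4671 were back above their zygote mean, and 1441 stayed under 1 FPKM from the 4-cell stage on.

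The lists that fell parted ways later. The median FPKM of ribosomal protein members was 25.5 in MII oocytes, 16.5 in zygotes, 7.15 in E2-cell embryos, 52.0 in late 2-cell embryos and 264 in blastocysts. For the respiratory chain it was 20.3, 15.5, 4.54, 6.59 and 43.8 FPKM at the same stages, so E2-cell embryos held the lowest median of all 8 stages in both lists. Egg coat genes went on falling, with 126, 102, 22.9, 11.9 and 0.386 FPKM at those stages. The 2-cell genes peaked in E2-cell embryos, at 25.5 FPKM, against 0.117 in MII oocytes, 0.179 in zygotes and 12.7 in late 2-cell embryos.

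**Figure D5:**
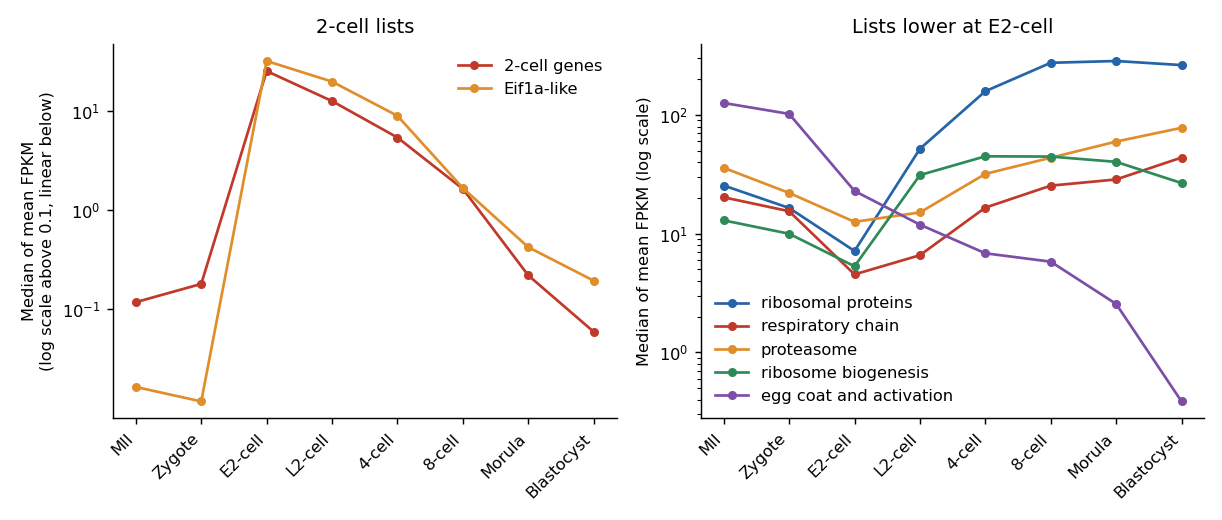
Median over the members of a list of the mean FPKM at each of 8 stages, from MII oocyte to blastocyst, on a log scale (left panel linear below 0.1). In the left panel the 2-cell genes and the Eif1a-like genes peak in E2-cell embryos, with medians of 25.5 and 32.2 FPKM; in the right panel ribosomal proteins, the respiratory chain, the proteasome and ribosome biogenesis are lowest in E2-cell embryos and higher later, while egg coat genes keep falling.

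The BDF1 control embryos of the second experiment repeat the step in samples that share no library with the first, though not in the same strain, treatment or stage labels. The library kit may differ too. In them 10439 of 13180 rows tested changed (79.2%; 33.5% higher and 45.7% lower in Early2c than in Late1c). Of the 2734 members that rose in E2-cell embryos, 2106 were higher in Early2c controls, 127 were lower, 340 were not called and 161 were not tested there. Of the 4671 that fell, 3243 were lower in Early2c controls, 74 were higher, 351 were not called and 1003 were not tested. The 2-cell genes gave 31 higher and 2 lower, with a median of 4.83, and the respiratory chain 9 higher and 53 lower of 71 tested, with a median of -1.02. Ribosomal proteins gave 23 higher and 44 lower of 80 tested, with a median of -0.59.

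Where the experiments differed, the difference itself was tested in 1 model over the 10 libraries. It was called for 2663 of 15418 rows (17.3%; 7.23% with the larger value in the C57BL/6 step and 10.0% with the larger value in the BDF1 step). Single libraries decided much of that count, which was 6588 without zygote replicate 2, between 1673 and 1701 without an E2-cell replicate and between 1488 and 1621 without a Late1c control. Of 84 ribosomal protein members 28 had the lower value in the C57BL/6 step and none the higher one, and of 77 histone members 29 had the larger value in the BDF1 step and 2 in the C57BL/6 step. Histone genes in the BDF1 controls gave 63 higher and 7 lower. Of the 201 members with opposite calls in the 2 experiments, 173 also passed the test of the difference, 145 of them protein-coding. Kdm6b, a histone H3 lysine 27 demethylase, is one: it read 10.9 and 13.8 FPKM in E2-cell embryos against 3.41 and 3.34 FPKM in zygotes, and 61.8, 60.0 and 54.2 FPKM in Early2c controls against 62.2, 79.0 and 67.9 FPKM in Late1c controls. Its rise in the C57BL/6 step (log2 difference 1.72, SE 0.47, adjusted p = 0.0119) was lost without E2-cell replicate 2 and without the filter on low values. Zbtb5, a zinc-finger repressor, moved alike in both, with 1.43 and 1.48 FPKM in E2-cell embryos against 0.170 and 0.212 FPKM in zygotes (log2 difference 1.5) and 3.12, 2.98 and 2.43 FPKM in Early2c controls against 0.0473, 0.136 and 0.174 FPKM in Late1c controls (log2 difference 2.43).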

How the data were processed

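Total RNA of pooled embryos was sequenced and deposited by the authors as 1 table of FPKM per gene and library. Per the submitters' processing notes, cutadapt 1.18, HISAT2 2.1.0, StringTie 1.3.4d, Cufflinks and Cuffdiff 2.2.1 were used with GRCm38. The sources used here give no order of the steps. Per the labels' protocols, ribosomal RNA was removed and libraries were made with a stranded total RNA kit or, for small amounts, with another stranded kit, and which sample had which is not stated. Of 43 columns, 28 were used and 15 of other experiments were not. Classes and positions came from GENCODE M21 for 54409 of 54446 Ensembl rows.

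From the FPKM the following was computed. The main test was limma 3.58.1 (R 4.3.3; lmFit, then eBayes with a trend) on log2(FPKM + 0.5), over all 16 stage libraries and the 19692 rows with 1 FPKM in at least 2 of them, with Benjamini-Hochberg adjustment over all rows and a threshold of 0.05. A log2 difference on this scale understates the change of low genes. Fragment numbers were estimated from the FPKM of 1 fragment and were not used in a test. The BDF1 controls and the difference between experiments were fitted the same way. The script was tested on simulated data. Promoter windows are RefSeq, GRCm38.p6, matched by symbol.

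The members and gene lists were chosen with earlier results of these data known. Genes were named by a rule that takes, from each list and each class, those with the largest changes in each direction past the threshold, those at 0 in both zygotes with the highest E2-cell mean, and the most abundant ones not called. Zp3, Bmp15, Duxf3, AF067061 and Gm13043 fall outside it. Replicate numbers do not pair the samples. The alternatives were other pseudocounts, no filter, 2 scalings, a replicate block, each replicate left out, the 4 columns alone and the columns of tag b2 alone. The replicate block left the 4-cell libraries out of the stage fit.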

Additional observations from a re-analysis of the deposited data

Results flagged for a closer look

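For 173 members, 5 of them among the genes that the naming rule covers and given here, the change in the C57BL/6 step and the change in the BDF1 controls ran in opposite directions, each past its threshold, and the difference between them was itself called by limma. Brix1, a ribosome assembly factor, had 39.7 and 40.1 FPKM in E2-cell embryos against 13.9 and 35.05 FPKM in zygotes, and 28.5, 27.6 and 24.5 FPKM in Early2c controls against 68.8, 61.9 and 68.6 FPKM in Late1c controls, a difference of 2.13 on the log2 scale (adjusted p = 0.0124), and its rise in the C57BL/6 step was lost with the replicate block, without zygote replicate 1, without either E2-cell replicate, with no filter on low values and when the 4 columns were fitted alone. For Kdm6b, whose values stand in the report, the difference was 1.96 (adjusted p = 0.000938). Hist1h1e, a linker histone, had 4.22 and 3.88 FPKM in E2-cell embryos against 7.45 and 6.95 FPKM in zygotes, and 5.94, 4.68 and 6.10 FPKM in Early2c controls against 3.73, 4.09 and 3.55 FPKM in Late1c controls, a difference of -1.25 (adjusted p = 0.00406), and its fall in the C57BL/6 step was lost when the 4 columns were fitted alone. Terc, the telomerase RNA, had 18.7 and 15.7 FPKM in E2-cell embryos against 36.5 and 26.0 FPKM in zygotes, and 3.02, 3.87 and 2.29 FPKM in Early2c controls against 0.748, 1.74 and 1.08 FPKM in Late1c controls, a difference of -1.92 (adjusted p = 0.0126), and its fall in the C57BL/6 step was lost without zygote replicate 1, without E2-cell replicate 2 and when the 4 columns were fitted alone. The mitochondrial tRNA mt-Tg had 0.837 and 1.59 FPKM in E2-cell embryos against 12.4 and 8.99 FPKM in zygotes, and 156, 165 and 213 FPKM in Early2c controls against 105, 73.2 and 72.8 FPKM in Late1c controls, a difference of -3.82 (adjusted p = 0.000675). Strain, treatment and stage label differ between the experiments, the library kit may differ too, and these cannot be told apart here.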

How the results depend on the processing

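Members called numbered 7405, and 4030 when the 4 columns were fitted alone (1386 higher, 2644 lower). Why that fit called fewer members was not tested. Leaving out single replicates gave 5836 to 8439 calls in all, 2011 to 3642 higher and 3825 to 4814 lower. In every one of the 12 alternatives 1277 members were higher and 2405 lower. The count of rows called in the BDF1 controls, 10439, ran between 9990 and 10210 without single replicates. The difference between the experiments was called for 2663 rows and for 1488 to 6588 without single replicates, and the cause was not tested. With the replicate number as a block, members called numbered 6987 (2509 higher, 4478 lower), control rows 10401 and the difference 1799. In the stage fit this setting also left out the 4-cell libraries, so the 2 choices cannot be told apart there. The replicate numbers do not pair the samples: deviations of E2-cell replicate 1 and zygote replicate 1 correlated at -0.0311 over 19692 rows. The block setting moved none of these 5 counts by over 1.5 times. Among the lists, rises under it numbered 7 instead of 14 for the mitochondrial genome and 3 instead of 5 for polymerase subunits. Of 101 named genes that were called, 92 kept their call in every alternative, and of the genes not called, Eif1ad, at -0.02, had log2 differences of -0.63 without zygote replicate 1 and 0.60 without zygote replicate 2. Lists with at least 10 members that had more rises than falls numbered 10 of 30, and 7 to 14 over the alternatives. Depth sets a limit for low rows: 1 FPKM over 2 kb rested on about 19.8 fragments in the shallowest library. FPKM carries no total RNA per embryo, so a fall of share and a fall of amount cannot be told apart.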
